A study of Mus musculus with 2 samples.

Results

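The 31 genes described here carry the synthesis of cholesterol, its regulation, and the transport, esterification and export of sterols. They were picked by gene symbol from the gene rows of the matrix, and all 31 were found among its 32285 genes. By role, 18 were enzymes of synthesis, 7 of them on the way from acetyl units to farnesyl diphosphate and 11 from squalene to sterols. Another 5 were regulators, and 8 served transport, esterification or export. The study measured nuclear RNA and open chromatin in the same nuclei of pooled mouse embryos at E7.0, the stage of gastrulation, with 1 library per assay. The embryos were dissociated with TrypLE, strained and taken through nuclei isolation and 10x Genomics library preparation. The labels conflicted, since the title, the age and the protocol gave E7.0 embryos while the tissue entries gave the small intestine or the distal colon, the cell type entry goblet cells, and the strain entry RedMUC298trTg. Both samples shared all 15341 barcodes, no barcode could be tied to an embryo, and no second condition was measured, so the comparisons below are between cell classes within this pool.

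Cells build cholesterol from acetyl units by way of mevalonate, isoprenoid diphosphates, squalene and lanosterol, or take it up in lipoproteins, from which it leaves the lysosome through the NPC1 protein. When membranes are short of sterol, SCAP escorts the SREBP transcription factors out of the endoplasmic reticulum, where INSIG proteins otherwise hold them, and the cleaved factors raise the genes of synthesis. Surplus cholesterol is stored as ester by the SOAT enzymes or leaves the cell through ABC transporters, and the visceral endoderm, the absorptive layer around the early mouse embryo, is known for taking up maternal nutrients and secreting apolipoproteins.

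The nuclei kept numbered 12796 of 15341 (83.4%), with medians of 10471 RNA molecules (UMIs) and 17350 peak counts. Levels are in CPM, the summed UMIs of a gene scaled to the total UMIs of the class, and the 95% intervals reflect counting error alone. Since each assay had 1 library, no difference could be checked against replicates or tested. RNA was read in classes named from clusters of the accessibility data, made without peaks near the 31 genes: 3911 epiblast-like nuclei, 282 primitive streak-like, 1537 embryonic mesoderm-like, 666 haemato-endothelial progenitor-like, 1438 anterior streak, node and definitive endoderm-like (anterior streak-like below), 1576 visceral endoderm-like, 1447 extraembryonic ectoderm-like and 184 ectoplacental cone-like. A further 35 parietal endoderm-like nuclei and 1720 unnamed nuclei entered the RNA folds mainly as part of the reference. A fold is the CPM of a class over the CPM of all other kept nuclei, and a gene was counted as higher or lower from 1.5-fold on. The markers of the visceral endoderm summed to 12586 CPM in the visceral endoderm-like class and 651 CPM in the epiblast-like class, whereas the goblet and intestinal list summed to 2.85 CPM over all kept nuclei. The visceral endoderm list also summed to 5011 CPM in the unnamed nuclei. In the anterior streak-like class it summed to 2338 CPM, above that class's own list at 1641 CPM. Both groups are in the reference of the visceral endoderm-like folds. The extraembryonic ectoderm list summed to 857 CPM in its own class and 1028 CPM in the ectoplacental cone-like class, so it does not separate them. The ectoplacental cone list summed to 121 CPM in the extraembryonic ectoderm-like class and 1375 CPM in its own.

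Promoter sequences are shown for 5 genes, 4 of synthesis and 1 of uptake, that the results below describe, so that the elements discussed for this pathway can be read in place. They come from RefSeq on build GRCm38.p6, run 5′ to 3′ from 250 bases before to 50 bases after a start, and were available for 25 of the 31 genes. Capitals mark the CCAAT box, on either strand as CCAAT or ATTGG, and in Hmgcs1 also the sterol regulatory element TCACNCCAC, a form of the site SREBP proteins bind. The 3 enzymes that follow had high RNA in the epiblast-like or extraembryonic ectoderm-like class.
Hmgcs1 (chr13:119690101-119690400, plus strand): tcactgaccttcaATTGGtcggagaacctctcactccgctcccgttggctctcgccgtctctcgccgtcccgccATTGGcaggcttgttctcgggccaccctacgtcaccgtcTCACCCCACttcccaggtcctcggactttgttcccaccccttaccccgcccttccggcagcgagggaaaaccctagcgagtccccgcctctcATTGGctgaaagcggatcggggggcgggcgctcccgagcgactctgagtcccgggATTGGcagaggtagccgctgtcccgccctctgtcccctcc
Idi1 (chr13:8885356-8885655, plus strand): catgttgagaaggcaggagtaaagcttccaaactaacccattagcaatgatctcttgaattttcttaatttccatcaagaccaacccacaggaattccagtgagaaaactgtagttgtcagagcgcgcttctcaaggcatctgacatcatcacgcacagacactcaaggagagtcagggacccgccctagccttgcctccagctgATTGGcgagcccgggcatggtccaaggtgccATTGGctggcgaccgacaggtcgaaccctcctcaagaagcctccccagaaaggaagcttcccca
Msmo1 (chr8:64733529-64733828, minus strand): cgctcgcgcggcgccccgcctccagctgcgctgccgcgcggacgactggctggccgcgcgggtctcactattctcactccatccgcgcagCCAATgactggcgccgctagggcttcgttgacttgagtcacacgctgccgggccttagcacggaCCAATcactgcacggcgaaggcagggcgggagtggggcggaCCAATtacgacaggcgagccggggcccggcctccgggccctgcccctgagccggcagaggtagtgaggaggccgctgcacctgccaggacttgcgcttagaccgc
Pmvk is shown at 2 listed starts, because its peaks at these starts differed between classes.
Pmvk, first start (chr3:89454291-89454590, plus strand): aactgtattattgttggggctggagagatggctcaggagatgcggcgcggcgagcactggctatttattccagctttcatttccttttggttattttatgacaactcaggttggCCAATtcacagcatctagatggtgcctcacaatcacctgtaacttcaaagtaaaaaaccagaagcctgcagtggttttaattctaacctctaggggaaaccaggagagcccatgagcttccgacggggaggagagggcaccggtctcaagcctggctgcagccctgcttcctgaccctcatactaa
Pmvk, last start (chr3:89459321-89459620, plus strand): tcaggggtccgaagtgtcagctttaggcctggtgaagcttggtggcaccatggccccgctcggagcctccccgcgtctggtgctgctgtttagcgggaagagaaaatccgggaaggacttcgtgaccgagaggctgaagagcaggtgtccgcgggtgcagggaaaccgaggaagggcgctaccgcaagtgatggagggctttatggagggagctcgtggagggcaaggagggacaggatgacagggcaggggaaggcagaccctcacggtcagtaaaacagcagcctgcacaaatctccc
Npc1l1 is shown because its promoter was more accessible in the visceral endoderm-like class.
Npc1l1 (chr11:6230196-6230495, minus strand): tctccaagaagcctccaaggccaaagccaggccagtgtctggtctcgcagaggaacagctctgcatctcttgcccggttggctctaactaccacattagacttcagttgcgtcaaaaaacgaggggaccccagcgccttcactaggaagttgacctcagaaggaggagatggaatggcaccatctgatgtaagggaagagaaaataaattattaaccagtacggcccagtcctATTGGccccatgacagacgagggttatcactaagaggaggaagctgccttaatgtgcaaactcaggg

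The sterol regulatory element TCACNCCAC, searched on both strands, stood in 1 of the 18 promoters listed for the 15 synthesis genes with a sequence, that of Hmgcs1, as TCACCCCAC at position -137 from the start. Of all 32851 RefSeq promoters of the same length, 1.24% held it. It was in 0 of 10 regulator promoters and 0 of 6 transport and export promoters. Only these exact letters were searched, so a promoter without a match can still hold another SREBP site. CCAAT was found in 14 of these 18 synthesis promoters, 5 of 10 regulator promoters (5 genes) and 4 of 6 transport and export promoters (5 genes), against 37.4% of all promoters. The Sp1 box GGGCGG was found in 15 of 18, 8 of 10 and 2 of 6 of these promoters, against 35.7% of all. The E-box CACGTG stood in 3 of 18, 3 of 10 and 1 of 6 of these promoters (those of Dhcr7, Hsd17b7, Sc5d, Insig1, Scap and Abca1), against 7.15% of all promoters. CAAAGTCCA, a core of the HNF4 site, and the direct repeat bound by LXR receptors were in no promoter of the 25 genes, and in 0.475% and 0.0152% of all promoters. Some of the member promoters overlap and share matches. The E-box of both Scap promoters is the same site, as is a GGGCGG in both. A CCAAT of Abcg5 and a CCAAT of Abcg8 are also the same bases. Counted by gene, the E-box was in 2 of 5 regulators, against 8.09% of all genes. None of these motifs contains another, and each match is a description of letters only. No sequence is shown for Fdps, Fdft1, Sqle, Stard4, Npc1 or Soat2.

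Synthesis RNA was highest in the epiblast-like and extraembryonic ectoderm-like classes and lowest in the visceral endoderm-like and mesoderm-like ones. In the epiblast-like class 8 of 18 synthesis genes were higher, where 11.5% of all 11391 tested genes (those at 5 CPM or more) were, and 1 was lower, where 17.3% were. The median log2 fold of the 18 genes was 0.45 there, and that of all tested genes -0.05. In the visceral endoderm-like class 8 of 18 were lower (25.7% of all genes) and 1 was higher (16.1%), with a median of -0.48 against -0.14 over all genes. Scaling by the median of ratios, which takes out that shift of all genes, left the count at 8, with 21.1% of all genes lower. Summed over the 18 genes, synthesis RNA was 1.62-fold (1.60 to 1.64) of the other nuclei in the epiblast-like class and 0.547-fold (0.535 to 0.560) in the visceral endoderm-like class.

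**Figure D1:**
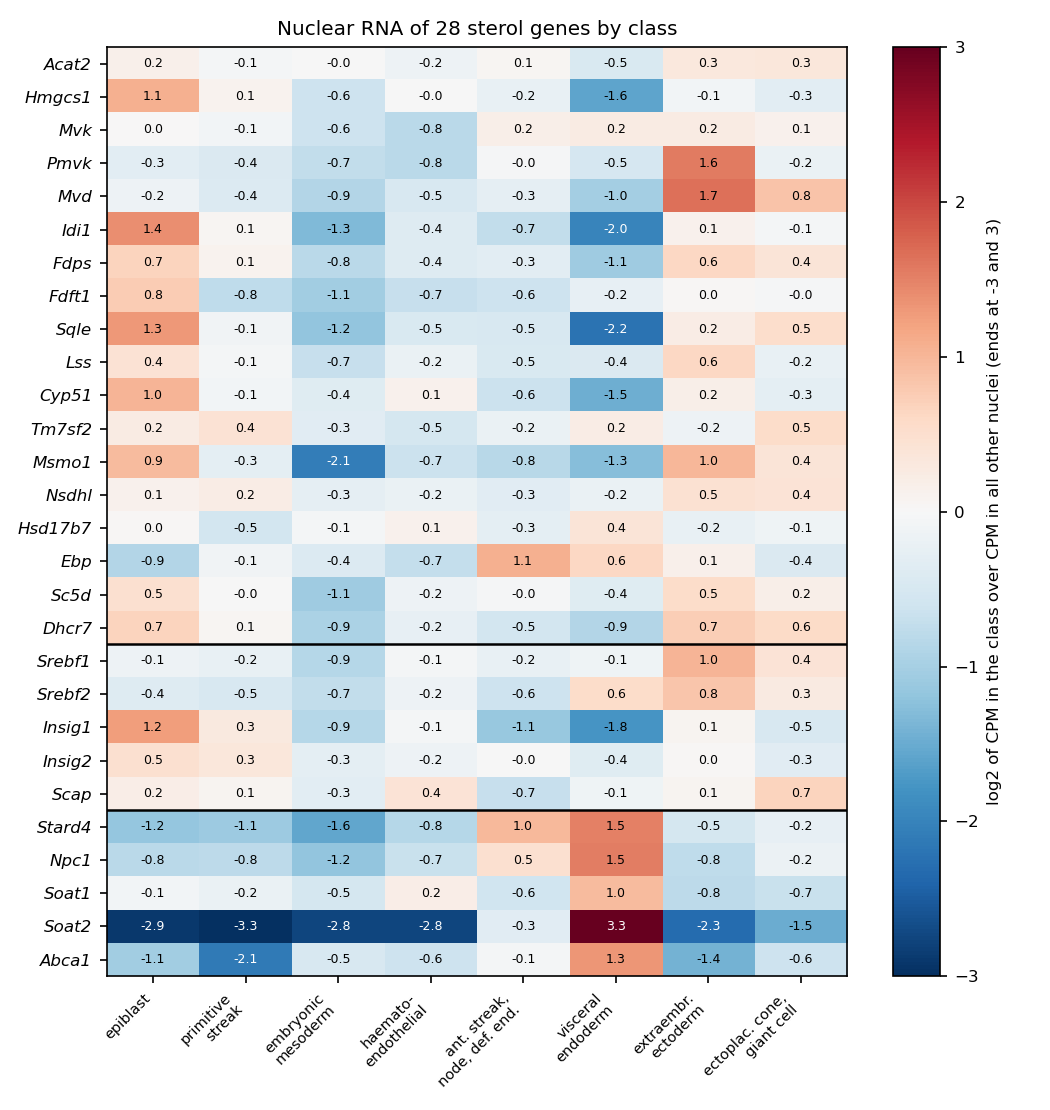
Log2 fold of the RNA of each gene (rows, grouped by role) in each of the 8 cell classes (columns) over all other kept nuclei, from summed UMI counts of 1 library. The synthesis rows are mostly positive in the epiblast-like column (8 of 18 past 1.5-fold) and negative in the visceral endoderm-like column (8 of 18), while the 5 transport and esterification genes at 5 CPM or more are all positive in the latter.

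Among the steps up to farnesyl diphosphate, Hmgcs1 and Idi1 were highest in the epiblast-like and lowest in the visceral endoderm-like class. Hmgcs1, the synthase that joins acetyl units ahead of mevalonate, stood at 164 CPM (159.9 to 167) in the epiblast-like class, 112 in the primitive streak-like, 104 in the haemato-endothelial progenitor-like, 98.9 in the extraembryonic ectoderm-like, 90.6 in the anterior streak-like, 83.9 in the ectoplacental cone-like, 70.5 in the mesoderm-like and 38.6 (36.0 to 41.4) in the visceral endoderm-like class. It was 2.09-fold (2.02 to 2.15) higher in the epiblast-like class than in other nuclei and 2.98-fold (2.78 to 3.20) lower in the visceral endoderm-like class, and the intervals of these extremes overlapped with those of no other named class of 100 nuclei or more.
Idi1, the isomerase that makes the reactive isoprenoid unit, had the same highest and lowest class: 82.4 CPM in the epiblast-like, 50.2 in the extraembryonic ectoderm-like, 48.5 in the primitive streak-like, 44.9 in the ectoplacental cone-like, 36.0 in the haemato-endothelial progenitor-like, 29.5 in the anterior streak-like, 20.1 in the mesoderm-like and 13.3 in the visceral endoderm-like class. The fold was 2.64 (2.51 to 2.77) upward in the epiblast-like and 3.93 (3.49 to 4.45) downward in the visceral endoderm-like class. The extraembryonic ectoderm-like, primitive streak-like and ectoplacental cone-like levels of Idi1 had overlapping intervals.

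Mvd and Pmvk, which act one after the other on phosphorylated mevalonate, instead peaked in the extraembryonic ectoderm-like class. Mvd, the decarboxylase, stood at 41.0 CPM (38.2 to 44.0) there, 29.8 in the ectoplacental cone-like, 15.5 in the epiblast-like, 14.1 in the anterior streak-like, 12.8 in the primitive streak-like, 12.2 in the haemato-endothelial progenitor-like, 9.67 in the mesoderm-like and 8.95 in the visceral endoderm-like class. Pmvk, the kinase, stood at 55.4 CPM (52.2 to 58.8) in the extraembryonic ectoderm-like class, 23.2 in the anterior streak-like, 20.5 in the ectoplacental cone-like, 20.1 in the epiblast-like, 17.49 in the primitive streak-like, 17.4 in the visceral endoderm-like, 14.95 in the mesoderm-like and 13.8 in the haemato-endothelial progenitor-like class. In the extraembryonic ectoderm-like class Mvd was 3.16-fold (2.90 to 3.44) and Pmvk 2.97-fold (2.76 to 3.19) higher than in other nuclei.
Fdps, the farnesyl diphosphate synthase, stood at 138 CPM in the extraembryonic ectoderm-like, 129.6 in the epiblast-like, 125 in the ectoplacental cone-like, 103.5 in the primitive streak-like, 78.9 in the anterior streak-like, 74.4 in the haemato-endothelial progenitor-like, 57.7 in the mesoderm-like and 50.04 in the visceral endoderm-like class. It was 2.08-fold lower in the visceral endoderm-like class. Mvk ran from 6.55 CPM in the haemato-endothelial progenitor-like to 13.1 CPM in the visceral endoderm-like class, and Acat2 from 29.7 CPM in the visceral endoderm-like to 49.6 CPM in the ectoplacental cone-like class, neither of them past 1.5-fold in the visceral endoderm-like class. Mvk was lower in the haemato-endothelial progenitor-like class, at 1.75-fold, and in the mesoderm-like class, at 1.55-fold. Of the 7 genes up to farnesyl diphosphate, 4 were lower in the visceral endoderm-like class (Hmgcs1, Mvd, Idi1 and Fdps), where 25.7% of all tested genes were, and the median log2 fold of the 7 was -1.01 against -0.14 over all genes.

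Of the 11 genes from squalene onward, 4 were lower in the visceral endoderm-like class, 1 was higher, and the median was -0.36. Over all tested genes 25.7% were lower and 16.1% higher in this class, with a median of -0.14. Sqle, the epoxidase that adds the first oxygen of the sterol branch, had the lowest level relative to other nuclei of any synthesis gene there. It stood at 74.8 CPM (72.3 to 77.4) in the epiblast-like, 62.7 in the ectoplacental cone-like, 49.99 in the extraembryonic ectoderm-like, 40.8 in the primitive streak-like, 32.5 in the haemato-endothelial progenitor-like, 32.4 in the anterior streak-like, 20.8 in the mesoderm-like and 10.6 (9.27 to 12.1) in the visceral endoderm-like class. This was 4.66-fold (4.08 to 5.35) lower in the visceral endoderm-like class and 2.45-fold (2.33 to 2.58) higher in the epiblast-like class than in other nuclei.
After thinning each nucleus to 5000 UMIs, a Sqle molecule was seen in 27.8% of epiblast-like and 4.84% of visceral endoderm-like nuclei, and in 46.8% and 12.1% of them before thinning. Cyp51, the demethylase of lanosterol, stood at 76.4 CPM in the epiblast-like, 54.6 in the extraembryonic ectoderm-like, 54.4 in the haemato-endothelial progenitor-like, 47.0 in the primitive streak-like, 40.7 in the ectoplacental cone-like, 39.7 in the mesoderm-like, 33.2 in the anterior streak-like and 19.7 in the visceral endoderm-like class. It was 2.02-fold (1.93 to 2.12) higher than in other nuclei in the first of these and 2.77-fold (2.51 to 3.07) lower in the last. Fdft1, the squalene synthase, stood at 52.4 CPM in the epiblast-like, 38.3 in the extraembryonic ectoderm-like, 36.6 in the ectoplacental cone-like, 32.2 in the visceral endoderm-like, 25.4 in the anterior streak-like, 23.5 in the haemato-endothelial progenitor-like, 22.2 in the primitive streak-like and 19.2 in the mesoderm-like class. Its level in the visceral endoderm-like class was thus not past 1.5-fold.

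Msmo1, the sterol methyl oxidase, had its lowest level in the mesoderm-like class. It stood at 64.0 CPM (60.5 to 67.7) in the extraembryonic ectoderm-like, 54.7 in the epiblast-like, 47.2 in the ectoplacental cone-like, 29.9 in the primitive streak-like, 23.6 in the haemato-endothelial progenitor-like, 21.5 in the anterior streak-like, 16.4 in the visceral endoderm-like and 9.50 (8.09 to 11.1) in the mesoderm-like class, where it was 4.21-fold (3.60 to 4.95) lower than in other nuclei. Mesoderm-like nuclei had 12 of 18 synthesis genes lower (18.5% of all genes) and 0 higher (8.38% of all), with a median log2 fold of -0.71. Among them Idi1 was 2.49-fold, Sqle 2.26-fold, Sc5d 2.08-fold and Fdft1 2.08-fold lower.
Ebp, the isomerase of the sterol ring, went the other way. It stood at 38.4 CPM (35.5 to 41.4) in the anterior streak-like, 29.6 in the visceral endoderm-like, 22.7 in the extraembryonic ectoderm-like, 19.3 in the primitive streak-like, 16.2 in the mesoderm-like, 15.4 in the ectoplacental cone-like, 13.0 in the epiblast-like and 12.95 in the haemato-endothelial progenitor-like class. It was 2.08-fold (1.91 to 2.27) higher than in other nuclei in the anterior streak-like class and 1.86-fold (1.69 to 2.04) lower in the epiblast-like class. Within the anterior streak-like class, Ebp stood at 67.2 CPM in accessibility cluster 12 and at 19.4 CPM in accessibility cluster 6. The 1.53-fold (1.40 to 1.68) excess of Ebp in the visceral endoderm-like class fell under 1.5-fold in 3 alternatives, at 1.39 with finer clusters, 1.48 with RNA-defined classes and 1.27 with called doublets kept.
Sc5d, a desaturase, stood at 26.8 CPM in the extraembryonic ectoderm-like, 24.2 in the epiblast-like, 21.9 in the ectoplacental cone-like, 19.3 in the primitive streak-like, 19.0 in the anterior streak-like, 17.51 in the haemato-endothelial progenitor-like, 15.7 in the visceral endoderm-like and 9.97 in the mesoderm-like class, the only 1 of the 8 in which it was past 1.5-fold. Dhcr7, the reductase of the last steps, ran from 8.44 CPM in the mesoderm-like to 23.5 CPM in the extraembryonic ectoderm-like class. Tm7sf2, Nsdhl and Hsd17b7 were past 1.5-fold in none of the 8 classes, and Lss was 1.53-fold higher in the extraembryonic ectoderm-like class and lower in the mesoderm-like class.

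**Figure D2:**
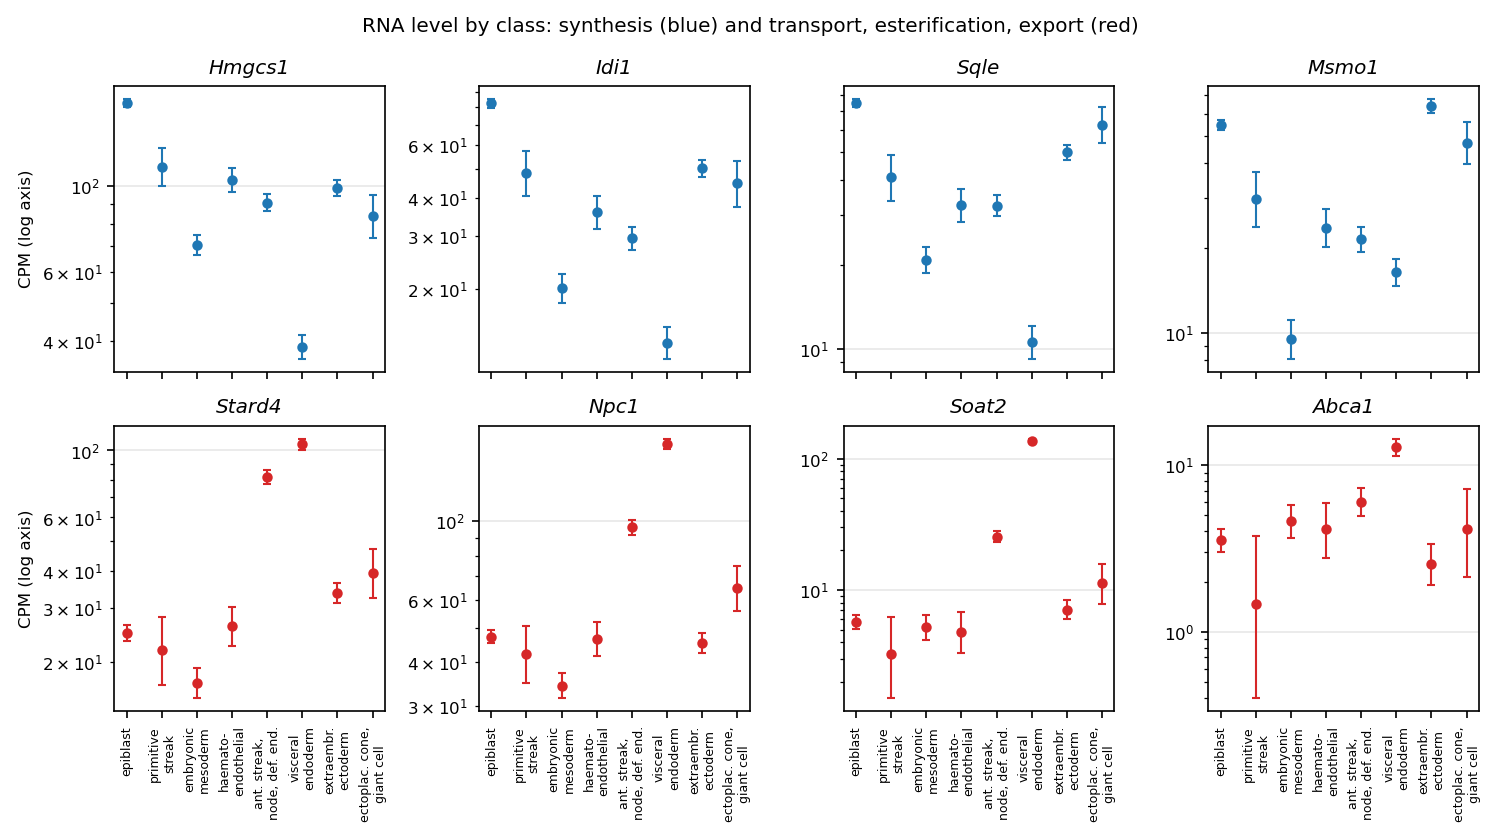
RNA level in CPM (log axis, 95% Poisson intervals over 1 library) of 4 synthesis genes and 4 transport or esterification genes in the 8 cell classes. Hmgcs1, Idi1 and Sqle have their lowest points in the visceral endoderm-like class and Msmo1 in the mesoderm-like class, while Stard4, Npc1, Soat2 and Abca1 have their highest points in the visceral endoderm-like class.

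The extraembryonic ectoderm-like class had 6 of 18 synthesis genes higher (12.9% of all genes) and 0 lower (25.2% of all): Mvd, Pmvk, Msmo1, Dhcr7, Fdps and Lss. With the epiblast-like class as the reference in place of all other nuclei, 3 of the 18 were higher, where 19.2% of all genes were. The anterior streak-like class had 1 higher (6.58%) and 4 lower (10.6%), the haemato-endothelial progenitor-like class 0 higher (8.23%) and 5 lower (16.1%), the primitive streak-like class 0 higher (6.15%) and 1 lower (15.5%), and the ectoplacental cone-like class 1 higher (12.6%) and 0 lower (26.7%). In the last 2 of these classes the counts did not exceed the share over all genes.
Epiblast-like nuclei were not uniform. Of the 3 accessibility clusters in that class, clusters 0 and 2 summed to 905 and 1072 CPM over the synthesis genes, with 7 and 10 of the 18 genes higher than in other nuclei (9.49% and 8.73% of all genes). Cluster 3 summed to 599.6 CPM, 0.963-fold of the other nuclei, with 0 of 18 higher (7.23% of all genes). Both visceral endoderm-like clusters were low, at 345 and 403 CPM.

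Among the regulators, Insig1, the sterol-sensing anchor that holds SREBP back and is itself a target of SREBP, had its highest and lowest levels in the same classes as Hmgcs1 and Idi1. It stood at 41.9 CPM (40.0 to 43.9) in the epiblast-like, 30.6 in the primitive streak-like, 26.1 in the extraembryonic ectoderm-like, 23.9 in the haemato-endothelial progenitor-like, 18.1 in the ectoplacental cone-like, 14.5 in the mesoderm-like, 12.1 in the anterior streak-like and 8.14 (6.97 to 9.46) in the visceral endoderm-like class. It was 2.38-fold (2.23 to 2.54) higher in the epiblast-like and 3.41-fold (2.92 to 3.999) lower in the visceral endoderm-like class, and was the only 1 of the 5 regulators past 1.5-fold in either, a share near that over all tested genes (11.5% higher in the epiblast-like and 25.7% lower in the visceral endoderm-like class).
The SREBP genes did not share that order. Srebf2, which encodes the SREBP best known for driving cholesterol synthesis, was highest in the extraembryonic ectoderm-like class at 241 CPM (235 to 248), second in the visceral endoderm-like class at 207 CPM (201 to 214), and stood at 124 CPM in the epiblast-like class. Srebf1, better known for fatty acid synthesis, stood at 47.7 CPM in the extraembryonic ectoderm-like, 34.9 in the ectoplacental cone-like, 25.5 in the haemato-endothelial progenitor-like, 24.8 in the visceral endoderm-like, 24.7 in the epiblast-like, 23.2 in the anterior streak-like, 23.0 in the primitive streak-like and 15.5 in the mesoderm-like class. It was 2.04-fold (1.89 to 2.19) higher in the extraembryonic ectoderm-like class, and its visceral endoderm-like, epiblast-like and haemato-endothelial progenitor-like levels had overlapping intervals.
Scap, the escort of SREBP, ran from 17.4 CPM in the anterior streak-like to 42.1 CPM in the ectoplacental cone-like class, and Insig2 from 16.4 CPM in the ectoplacental cone-like to 26.2 CPM in the primitive streak-like class with no class past 1.5-fold.

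All 8 genes of transport, esterification and export had their highest level in the visceral endoderm-like class, among the classes of 100 nuclei or more. The 5 that reached 5 CPM over all nuclei were all higher there (16.1% of all tested genes), with a median log2 fold of 1.52 and a summed fold of 2.63 (2.58 to 2.68). In the epiblast-like class 4 of these 5 were lower (17.3% of all tested genes) and 0 higher (11.5%). Nuclear RNA does not measure uptake or export of sterol itself.
Soat2, which makes cholesterol esters in liver and intestine for lipoprotein assembly, stood at 136 CPM (131 to 141) in the visceral endoderm-like, 25.5 in the anterior streak-like, 11.3 in the ectoplacental cone-like, 7.11 in the extraembryonic ectoderm-like, 5.72 in the epiblast-like, 5.22 in the mesoderm-like, 4.84 in the haemato-endothelial progenitor-like and 3.28 in the primitive streak-like class. It was 9.79-fold (9.22 to 10.4) higher in the visceral endoderm-like class than in other nuclei and 23.8-fold (20.9 to 27.2) higher than in the epiblast-like class. The visceral endoderm marker list differed 19.3-fold between these 2 classes, and its part in the Soat2 levels of the other classes was not tested.
At 5000 UMIs per nucleus a Soat2 molecule was seen in 658 of 1427 visceral endoderm-like nuclei (46.1%) and in 105 of 3690 epiblast-like nuclei (2.85%). Before thinning the shares were 70.4% and 5.91%.

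Soat1, the widely expressed esterifying enzyme, stood at 355 CPM (347 to 363) in the visceral endoderm-like, 235 in the haemato-endothelial progenitor-like and 200.0 in the epiblast-like class, and at 127 to 179.6 CPM in the other 5. It was 1.94-fold (1.89 to 1.99) higher in the visceral endoderm-like class. Npc1, which passes cholesterol out of the lysosome, stood at 166 CPM (160.1 to 171) in the visceral endoderm-like, 96.3 in the anterior streak-like, 64.7 in the ectoplacental cone-like, 47.2 in the epiblast-like, 46.5 in the haemato-endothelial progenitor-like, 45.3 in the extraembryonic ectoderm-like, 42.3 in the primitive streak-like and 34.3 in the mesoderm-like class. It was 2.91-fold (2.79 to 3.03) higher in the visceral endoderm-like class, and the epiblast-like, haemato-endothelial progenitor-like, extraembryonic ectoderm-like and primitive streak-like levels had overlapping intervals.
Stard4, a soluble carrier of cholesterol between membranes, is itself known as an SREBP target, and its 3 highest classes were those of Npc1. It stood at 105 CPM (100.5 to 109) in the visceral endoderm-like, 81.9 in the anterior streak-like, 39.4 in the ectoplacental cone-like, 33.8 in the extraembryonic ectoderm-like, 26.2 in the haemato-endothelial progenitor-like, 24.8 in the epiblast-like, 21.9 in the primitive streak-like and 17.0 in the mesoderm-like class. It was 2.87-fold (2.73 to 3.02) higher in the visceral endoderm-like class and 1.97-fold (1.86 to 2.09) higher in the anterior streak-like class.
Abca1, which loads cholesterol onto apolipoprotein A-I, stood at 12.8 CPM (11.3 to 14.4) in the visceral endoderm-like, 6.03 in the anterior streak-like, 4.63 in the mesoderm-like, 4.13 in the haemato-endothelial progenitor-like, 4.11 in the ectoplacental cone-like, 3.56 in the epiblast-like, 2.56 in the extraembryonic ectoderm-like and 1.46 in the primitive streak-like class. It was 2.49-fold (2.15 to 2.88) higher in the visceral endoderm-like class than in other nuclei. In the 35 parietal endoderm-like nuclei its 25 UMIs came to 63.1 CPM (40.9 to 93.2).

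The 3 other genes lay under 5 CPM. Npc1l1, the sterol uptake protein of the intestinal brush border, had 88 UMIs in all kept nuclei, 60 of them in the visceral endoderm-like class, a 12.7-fold (8.00 to 20.7) excess. Abcg5 and Abcg8, the partners in a sterol exporter, had 30 and 22 UMIs, of which 11 and 12 were in the visceral endoderm-like class.

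The anterior streak-like class was a mixture for these genes. Its cluster 6, with 981 nuclei, summed to 199 CPM over the transport genes, with 0 of 5 higher (6.76% of all genes) and 3 lower (12.6%), and had Stard4 at 22.1, Soat2 at 6.11 and Ebp at 19.4 CPM. Its cluster 12, with 457 nuclei, summed to 588 CPM with 3 of 5 higher (11.1% of all genes), and had Stard4 at 173 CPM, Npc1 at 155 CPM, Soat2 at 55.0 CPM, Ebp at 67.2 CPM and Insig1 at 5.602 CPM. In cluster 12 Stard4 was 4.30-fold (4.04 to 4.58), Ebp 3.64-fold (3.28 to 4.02) and Npc1 2.27-fold (2.13 to 2.42) higher than in other nuclei. The visceral endoderm markers summed to 4812 CPM in cluster 12, against 12361 and 13068 CPM in the visceral endoderm-like clusters 4 and 11, and their part in these values was not tested. In cluster 6 Ebp was at 0.9298-fold of other nuclei (0.802 to 1.07), so the excess of Ebp and Stard4 in the anterior streak-like class was that of cluster 12, which joined the visceral endoderm-like class at resolution 0.5. The visceral endoderm-like clusters differed as well, with Ebp at 21.1 CPM in cluster 4 and 47.8 CPM in cluster 11.

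**Figure D3:**
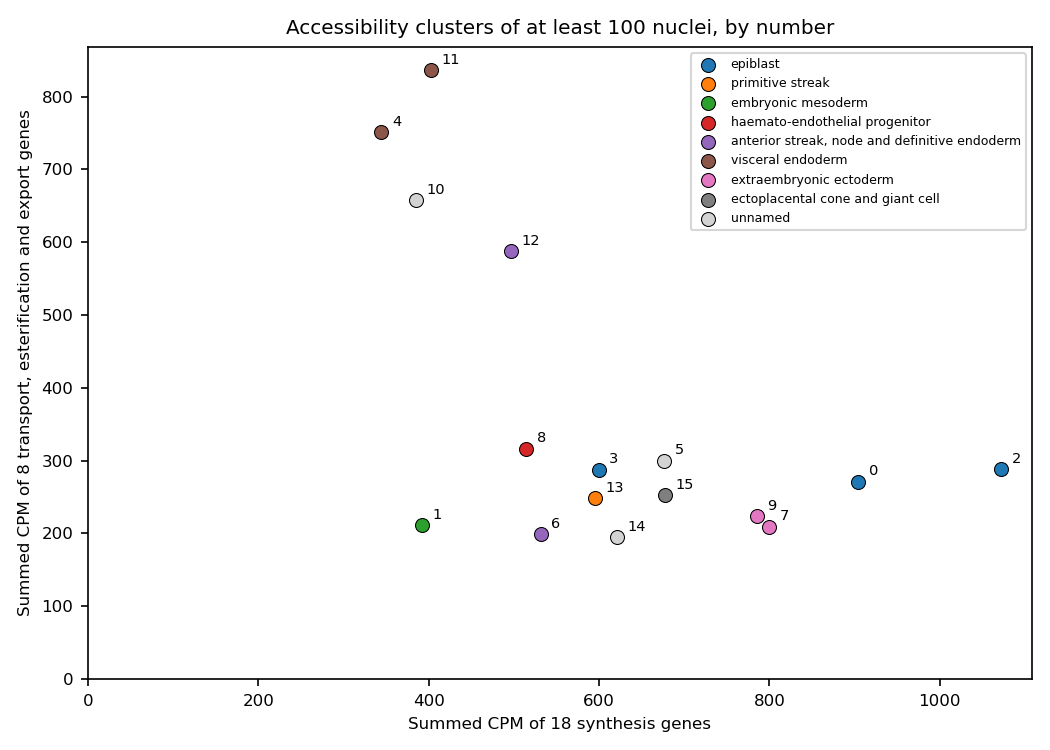
Summed RNA in CPM of the 18 synthesis genes (horizontal) against the summed RNA in CPM of the 8 transport, esterification and export genes (vertical) in the accessibility clusters of at least 100 nuclei, marked by cluster number and coloured by class. The visceral endoderm-like clusters 4 and 11 lie at 345 and 403 CPM of synthesis and 751 and 836 CPM of transport, unnamed cluster 10 lies near them, and the epiblast-like clusters 0 and 2 lie at 905 and 1072 CPM of synthesis.

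Set directly against the epiblast-like class, visceral endoderm-like nuclei had 23.8-fold more Soat2, 4.22-fold more Stard4, 3.59-fold more Abca1, 3.51-fold more Npc1 and 2.28-fold more Ebp, where 21.6% of all genes were at least 1.5-fold higher and 26.9% lower. They had 7.05-fold (6.15 to 8.11) less Sqle, 6.20-fold less Idi1, 5.14-fold less Insig1, 4.24-fold less Hmgcs1, 3.89-fold less Cyp51 and 3.34-fold less Msmo1. Fdps, Dhcr7, Mvd, Fdft1, Lss and Sc5d were 2.59 to 1.54-fold lower, and the other synthesis genes were not past 1.5-fold. Of the other regulators, Srebf2 was 1.68-fold (1.61 to 1.74) higher and Insig2 1.55-fold lower, with Srebf1 and Scap not past 1.5-fold. Soat1 was 1.78-fold higher. Unnamed cluster 10, in which visceral endoderm markers summed to 7777 CPM, had 386 CPM of synthesis RNA, 0 of 18 genes higher (13.8% of all genes) and 11 lower (21.0%), and 658 CPM of transport RNA with 5 of 5 higher.

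The neighbouring genes of lipid handling included groups that were mostly higher and a group that was mostly lower in the visceral endoderm-like class. Of 10 genes of lipoprotein assembly and export, 6 reached 5 CPM and all 6 were higher, where 16.1% of all tested genes were higher and 25.7% lower in this class, with a median log2 fold of 2.67. Among them the structural apolipoprotein Apob was 9.39-fold, Apoa1 7.48-fold and Apoa4 6.52-fold higher. Of 12 tested lipoprotein receptors and endosomal sterol carriers, 7 were higher and 3 lower, with a median of 0.77. Gramd1b, a carrier of plasma membrane cholesterol to the endoplasmic reticulum, was 8.96-fold higher, the endocytic receptor Lrp2 6.17-fold higher, and the lipoprotein receptor Lrp8 6.40-fold lower.
Fatty acid synthesis genes were mostly low there, 7 of 10 lower and 1 higher, with Fads2 6.42-fold, Fads1 5.96-fold and Elovl6 4.96-fold lower, all enzymes that desaturate or elongate fatty acids. The isoprenoid side branches had 1 of 9 higher (Dhdds, 1.66-fold) and 1 lower (Ggps1, 1.62-fold), and Fntb stood at 0.815-fold of other nuclei. The other sterol enzymes and partners had 0 of 8 higher and 1 lower, Lbr at 2.19-fold, while Tmem97 at 1.49-fold and Cyb5r3 at 1.39-fold stood above other nuclei without passing 1.5-fold. Neither the isoprenoid branches nor these enzymes exceeded the share over all genes. Among the genes for processing and turnover of sterol sensors, Mylip, the ligase that degrades lipoprotein receptors, was 2.99-fold higher, and Rnf139 was at 1.31-fold lower, not past 1.5-fold.
In the epiblast-like class, with 11.5% of all tested genes higher and 17.3% lower, 3 of 10 fatty acid genes were higher and 1 lower, while 6 of 6 assembly and export genes and 5 of 12 receptor and carrier genes were lower. The receptor Lrp8 was higher there, at 1.85-fold.

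Promoter accessibility of the synthesis genes was near that of other nuclei in the visceral endoderm-like class. It was read in the complementary way, in classes named from RNA clusters made without the 31 genes or the neighbouring pathway genes; of the nuclei named by both routes, 92.0% had the same name. A promoter peak was found for 30 of the 31 genes, Ebp being without one. Of 17 synthesis promoters 0 were past 1.5-fold in the epiblast-like class, where 13.9% of 21540 genes were higher and 8.02% lower, 0 in the mesoderm-like class (5.77% and 10.1%) and 0 in the visceral endoderm-like class (7.75% and 28.6%). The highest summed synthesis promoter fold of the 8 classes was that of the ectoplacental cone-like class, by RNA 460 nuclei, at 1.30 (1.25 to 1.34). The median log2 fold of the 17 promoters was 0.39 there, against 0.10 over all genes, and this sum was not rescaled to promoter peaks. In that class 2 of 17 promoters were higher (11.3% of all genes), Mvk at 1.501-fold and Dhcr7 at 1.54-fold, and 1 lower (28.6%), Fdft1. The only Mvk promoter peak is also a promoter peak of Mmab, and the stronger Dhcr7 peak is also that of Nadsyn1. The other Dhcr7 peak was at a log2 fold of 0.63. The Fdft1 value covers its weaker peaks, and a stronger peak between its listed starts was at 1.26-fold (1.10 to 1.43). In the visceral endoderm-like class the log2 folds of the 17 promoters ran from -0.43 to 0.47 with a median of 0.15, and summed accessibility was 1.11-fold (1.09 to 1.13) of the other nuclei. The low end was Fdft1, whose stronger peak between its listed starts was at a log2 fold of 0.31 there. The promoter of Sqle was at 0.875-fold, that of Idi1 at 1.04-fold and that of Hmgcs1 at 1.10-fold, while their RNA was 4.66-fold, 3.93-fold and 2.98-fold lower. The promoters of these 3 enzymes were thus near the level of other nuclei in a class in which their nuclear RNA was low.

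**Figure D4:**
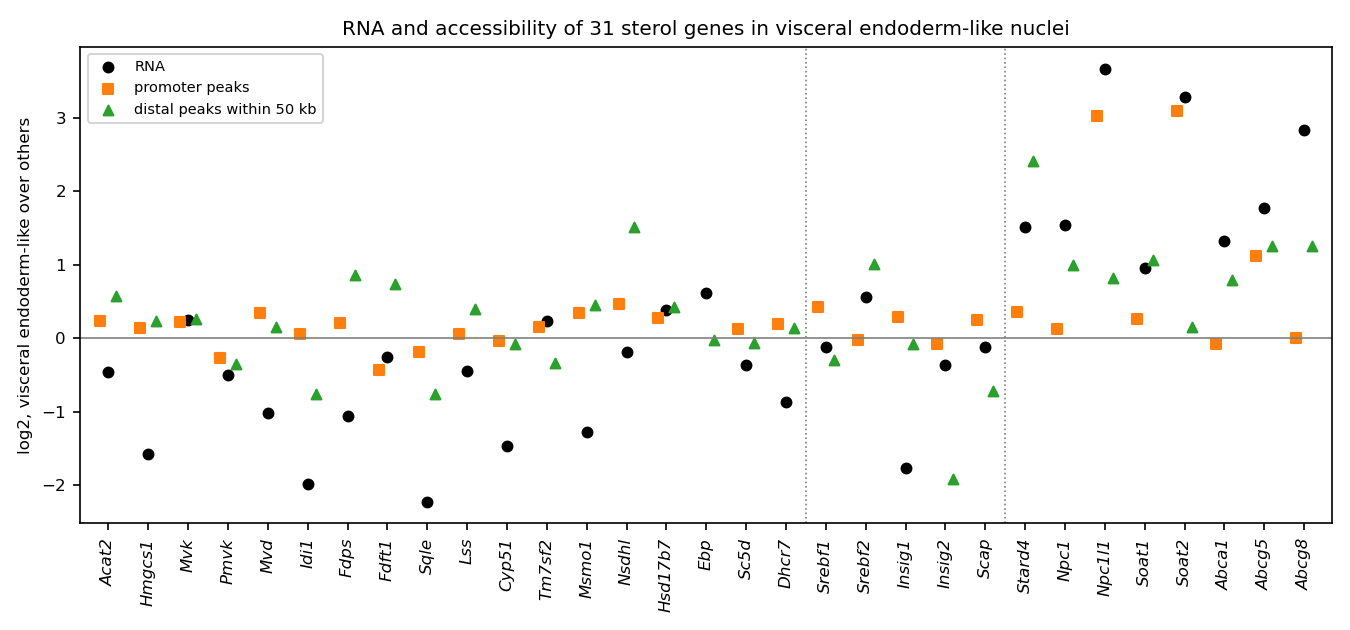
Log2 fold (vertical) in the visceral endoderm-like class over all other kept nuclei for the RNA, promoter accessibility and distal accessibility of each gene, with dotted lines between synthesis, regulators and transport. Synthesis promoters lie between -0.43 and 0.47 whatever their RNA, and the promoter points of Soat2 and Npc1l1, at 8.53-fold and 8.18-fold, stand above all other promoter points. The low end is Fdft1, whose value covers only its weaker peaks. RNA points use the class named from accessibility clusters, and accessibility points the class named from RNA clusters.

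Of the 8 transport and export promoters, 3 were higher in the visceral endoderm-like class and 0 lower, where 7.75% of all genes were higher and 28.6% lower. The promoter peaks of Soat2 had 54.6 CPM, here of all peak counts, there and 6.40 CPM in other nuclei, an 8.53-fold (7.72 to 9.43) difference. The promoter of Npc1l1, whose RNA was barely detected, was 8.18-fold (6.30 to 10.6) and that of Abcg5 2.17-fold more accessible. The Abcg5 value rests on a peak of 306 counts that is also a promoter peak of Abcg8. The stronger Abcg8 promoter peak, of 2426 counts, was at a log2 fold of -0.2 in the visceral endoderm-like class. The promoters of Stard4, Soat1, Npc1 and Abca1, at 1.29, 1.197, 1.09 and 0.949-fold, were not past 1.5-fold although their RNA was.
By RNA the parietal endoderm-like class held 180 nuclei, and there 4 of the 8 promoters were higher (8.51% of all genes) and 0 lower (27.9%): Abcg5 at 5.35-fold (2.71 to 9.61) on 23 counts, Soat2 at 3.45-fold (2.73 to 4.32), Npc1l1 at 2.31-fold (0.987 to 4.63) on 15 counts and Stard4 at 1.54-fold (1.23 to 1.89). Peaks away from the listed starts gave other values. Summed over peaks within 50000 bp and outside promoters, 7 of 8 transport and export genes were more accessible in the visceral endoderm-like class, where 18.2% of 29708 genes were higher and 35.5% lower. The largest was Stard4 at 5.30-fold (4.86 to 5.79), followed by Abcg5 and Abcg8 at 2.38-fold, which share their peaks, Soat1 at 2.09, Npc1 at 1.997, Npc1l1 at 1.77 and Abca1 at 1.74-fold, with Soat2 at 1.12-fold. In the parietal endoderm-like class 6 of 8 were more accessible (17.2% of all genes) and 0 less (32.8%). In Soat1 3 peaks lay between its first and last listed start, at chr1:156470303-156471163, chr1:156471534-156472285 and chr1:156472655-156473361. They were 6.43, 7.62 and 3.03-fold more accessible in the visceral endoderm-like class and 5.53, 5.01 and 2.16-fold in the parietal endoderm-like class.
Distal peaks of 3 of 18 synthesis genes were higher in the visceral endoderm-like class (Fdps, Fdft1 and Nsdhl) and those of 2 were lower, Idi1 by 1.70-fold and Sqle by 1.69-fold, counts that do not exceed the 18.2% and 35.5% over all genes. In the epiblast-like class the distal peaks of 2 of 18 synthesis genes were higher, Cyp51 at 1.75-fold and Sqle at 1.61-fold, and those of 1, Mvd, were 1.91-fold lower. These counts do not exceed the shares over all genes there, 11.1% higher and 13.3% lower. Of the regulators, 0 of 5 promoters were past 1.5-fold in the visceral endoderm-like class, while the distal peaks of Srebf2 were 2.01-fold higher and those of Insig2 and Scap stood at 0.264-fold and 0.609-fold. Peaks within this distance can belong to neighbouring genes.

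In the extraembryonic ectoderm-like class 1 synthesis promoter was higher (6.57% of all genes), that of Pmvk at 2.12-fold (1.94 to 2.32), and 1 was lower (27.6%), that of Fdft1 at 2.59-fold. The Pmvk value was a sum over the peaks at its 2 printed promoters, which differed. The peak at the first start, chr3:89454388-89455216, had 32.1 CPM of peak counts in the extraembryonic ectoderm-like class, 10.4 in the ectoplacental cone-like, 4.37 in the epiblast-like and 0.864 in the visceral endoderm-like class. It was 8.27-fold (7.15 to 9.57) more accessible in the extraembryonic ectoderm-like class and 8.18-fold less accessible in the visceral endoderm-like class than in other nuclei. The peak at the last start, chr3:89458687-89459615, had 19.1 to 24.1 CPM in all 8 classes and was at 1.07-fold (0.931 to 1.22) in the extraembryonic ectoderm-like class. A peak between these starts, chr3:89456501-89457383, outside the promoter windows, was at 1.64-fold (1.36 to 1.96) there and at 0.812-fold (0.664 to 0.984) in the visceral endoderm-like class. Of the Pmvk sequences printed above, the one at the first start holds a CCAAT box and the one at the last start does not, and GGGCGG is in neither. The last-start sequence covers only the end of its peak, so this contrast does not describe the whole peak. The bases of that peak before the sequence were not searched. Whether they hold a CCAAT or Sp1 box is therefore not known here.
Mvd, also highest in RNA in this class, had a promoter at 0.999-fold and distal peaks at 4.12-fold (3.83 to 4.44), where 17.1% of all genes were higher and 31.3% lower. The stronger of the Fdft1 promoter peaks held 4021 counts, while a peak between its listed starts, chr14:63177537-63178444, held 12669 and stood at log2 folds of 0.08 in the extraembryonic ectoderm-like, 0.31 in the visceral endoderm-like and -0.15 in the epiblast-like class, so the lower Fdft1 value covers only the weaker peaks.

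**Figure D5:**
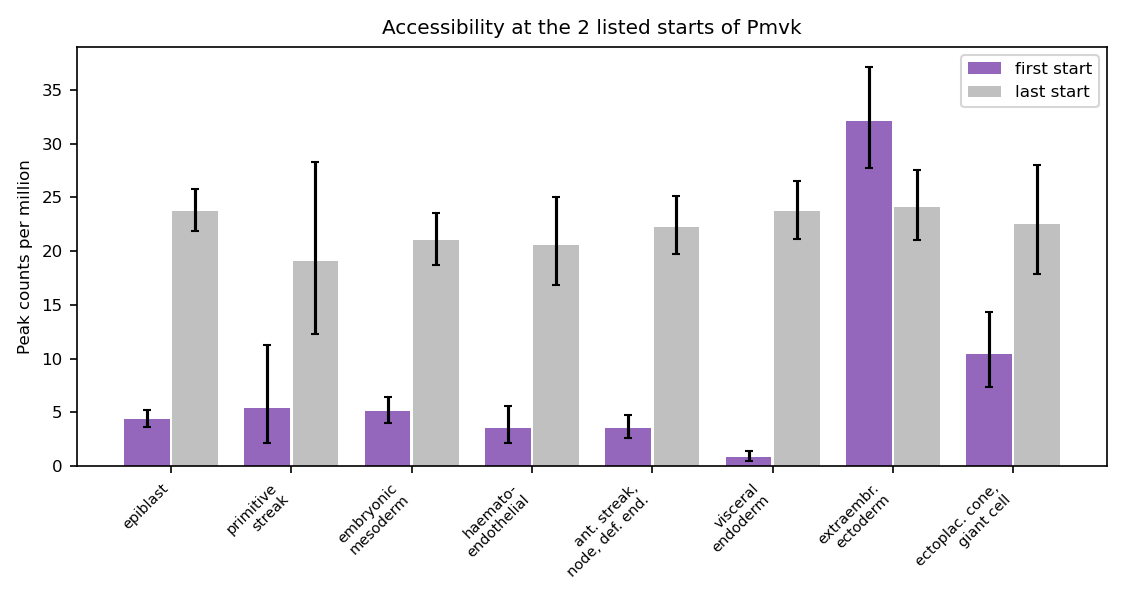
Accessibility, in CPM of peak counts, of the Pmvk peaks at the first and the last listed start in the 8 RNA-defined classes, with 95% intervals of the fold over other nuclei scaled to the level. The first-start peak reaches 32.1 in the extraembryonic ectoderm-like class and 0.864 in the visceral endoderm-like class, while the last-start peak stays between 19.1 and 24.1.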

How the data were processed

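Nuclear RNA and accessible chromatin were measured in the same nuclei of pooled embryos. The deposited values were whole-number counts per gene (UMIs) and per peak, not normalized. They were made with Cell Ranger ARC 2.0.0 on mm10, per the submitters' processing notes; the sources used here name no further filter by the authors. A nucleus needed 1000 UMIs, 500 detected genes, 1000 peak counts and no more than 20% of UMIs from mitochondria, and 1154 Scrublet calls (7.52% of barcodes, scanpy 1.11.5) were removed. The kept nuclei held 145682614 UMIs and 228021662 peak counts.

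RNA was clustered on 2000 variable genes and 30 components, accessibility on TF-IDF and singular vectors without peaks within 50000 bp of the 31 genes, both with leidenalg 0.10.2 at resolution 1. Clusters were named from the RNA of marker lists, 14 of 18 accessibility clusters and 18 of 22 RNA clusters. The scoring rule for names was set after the data were seen, so differences from the study's own cell types may come from these rebuilt names. The 31 genes, the pathway lists and the markers were chosen with earlier results of these data known, and the printed promoters after their values were seen.

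Intervals are exact Poisson for levels and conditional for folds (scipy 1.17.1). Those on accessibility use fragments, the counts divided by 2 and rounded up, since 86.4% of nonzero peak values were even. Nuclei are not replicates, and embryos cannot be told apart. Genes at 5 CPM or more were given in full where past 2-fold in a class of at least 100 nuclei, and others by range or UMIs; in each pathway list the 3 tested genes farthest from other nuclei in the visceral endoderm-like class are named, except 1 gene that is not reported here. A promoter ran from 1000 bp before to 100 bp after the lowest and highest listed start, with strand from RefSeq. Where the strand was undecided, for 9120 genes and among them 2 of those described here, it ran 1000 bp to each side. The counting was tested on simulated data. Alternatives covered resolution, the assay that defines classes, doublets, depth and low-value filters, scaling, weighting, reference, fold and promoter window.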

Additional observations from a re-analysis of the deposited data

How the results depend on the processing

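With 1 library per assay, no library could be left out, and no paired analysis was possible because no group had replicates. Single-gene values were recomputed for the RNA of the 17 genes given in full, in the epiblast-like and visceral endoderm-like classes only. Those genes were picked as past 2-fold in these same counts. The promoters of Soat2 and Npc1l1 in the visceral endoderm-like class and of Pmvk in the extraembryonic ectoderm-like class were recomputed too. Single-gene RNA folds in other classes were not recomputed. Of these 347 values under the alternatives, 344 kept their direction, and the 3 that changed were all values of Srebf1 near 1-fold. Of the 271 past 1.5-fold, 268 stayed past it, and the other 3 were Ebp in visceral endoderm-like nuclei. A single-gene RNA fold does not depend on the low-value filter. Its values under the filter alternatives were therefore fixed in advance, and they add to both counts of unchanged values. At a 2-fold limit, the synthesis genes counted higher in epiblast-like nuclei were 4 in place of 8 (6.20% of all genes), those lower in mesoderm-like nuclei 5 in place of 12 (11.4%), and those higher in extraembryonic ectoderm-like nuclei 2 in place of 6 (5.47%), or 3 at 1.5-fold over epiblast-like nuclei (19.2%). With no filter on low values, 8 of 8 transport genes in place of 5 of 5 were higher in visceral endoderm-like nuclei (17.8% of 26834 genes).

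The summed synthesis fold in epiblast-like nuclei, 1.62, became 1.83 at resolution 0.5, 1.76 at resolution 2, 1.76 with RNA-defined classes, 1.81 at 2000 UMIs and 2000 peak counts, and 1.68 with median-of-ratios scaling. In visceral endoderm-like nuclei it was 0.547, and became 0.568 at resolution 0.5, 0.562 at resolution 2, 0.614 with doublet calls kept, 0.586 at the stricter depth, 0.605 with median-of-ratios scaling, 0.567 with nuclei weighted equally and 0.429 over epiblast-like nuclei. The summed transport fold there, 2.63, became 2.83 at resolution 0.5, 2.70 with RNA-defined classes, 2.41 with doublet calls kept, 2.47 at the stricter depth, 2.90 with median-of-ratios scaling and 2.76 over epiblast-like nuclei. The median synthesis log2 fold there, -0.48, became -0.33 with median-of-ratios scaling and -0.69 over epiblast-like nuclei. The median transport log2 fold, 1.52, became 1.79 at resolution 0.5, 1.38 with doublet calls kept, 1.43 at the stricter depth, 1.66 with no filter, 1.67 with median-of-ratios scaling and 1.84 over epiblast-like nuclei. The summed synthesis promoter fold, 1.11, became 1.08 at resolution 0.5, 1.13 with accessibility-defined classes, 1.05 with doublet calls kept and 1.05 when scaled to promoter peaks. The cause of these shifts was not tested. At resolution 0.5, 456 of the 457 nuclei of cluster 12 fell in the visceral endoderm-like class.

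Depth limited Npc1l1, Abcg5 and Abcg8 most, with 88, 30 and 22 UMIs. Nuclear RNA from 1 pool of embryos gives no spread between embryos, and class names rest on markers.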
